A study of Mus musculus with 11 samples.

Results

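The angiomotin family and the Ajuba-related LIM proteins are scaffolds of cell junctions, usually described as acting on YAP in opposite directions. This report follows their mRNAs in mouse liver after YAP induction. The members were taken from the table by gene symbol, as families and not by a threshold on their values: Amot, Amotl1 and Amotl2 for the angiomotins and Limd1 and Wtip for the LIM proteins. All 5 symbols were present among the 20893 genes of the expression table. All 5 passed the filter on low values and were tested.

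Whole livers of 11 mice were profiled by bulk RNA-seq, with 1 library per mouse. The labels give every mouse as ROSA26-rtTA-IRES-EGFP, with tetYAP in the induced groups and WT in controls, and the model of the study adds alb-CRE to a lox-stop rtTA and a tet-YAP transgene. Albumin-driven Cre recombinase removes the stop cassette in hepatocytes and so allows expression of the transactivator rtTA, which in the presence of doxycycline turns on the S127A mutant of YAP, which lacks an inhibitory phosphorylation site. The groups were 4 control livers marked WT, given doxycycline for 7 days according to the labels, 4 livers with 3 days of doxycycline and 3 livers with 7 days. The strain is given as C57BL/6, while age and sex are not stated, nor is it stated whether controls carry alb-CRE. Cells in which the albumin-driven Cre was never active were not targeted directly, yet their RNA is in each library. Which cells other than hepatocytes carry the excised cassette is not stated. Nothing in the labels says that livers of a group came from separate litters or days, so p-values measure the spread between these livers.

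Levels are given as eRPKM, that is exonic reads per kilobase after scaling for library size by the authors. Since length is divided out, levels of different genes can be set side by side. Differences were tested with limma on log2(eRPKM + 0.5) over 14244 genes. Calls required both an adjusted p (Benjamini-Hochberg) below 0.01 and a log2 fold change beyond 0.5 in either direction, and rose or fell is written only of called genes. The added 0.5 understates the log2 fold change of low genes such as Wtip.

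Depth ran from 1251396 to 5941357 reads on genes. The median liver had 3152456 such reads among controls, 3652720 after 3 days and 5356541 after 7 days, which means that depth moved with time of induction. By the reads of Xist and Ddx3y, 7 livers were female and 4 male, and all 3 livers at 7 days were female. The label suffix MF, whose meaning is not stated, marks 3-day livers 1 and 4 and 7-day liver 2. Hepatocyte markers were abundant in every liver, with a summed level of 988 to 3350 eRPKM over 6 genes. Of the marker lists, proliferation genes rose most broadly at 7 days (6 of 6), 4 of 5 tested macrophage markers rose, and 2 of 6 hepatocyte markers, Ttr and Tat, fell. Over all tested genes 18.0% were called higher and 5.77% lower at 7 days against control. Ttr held 663 to 1195 reads and Alb 2417 to 3102 in libraries whose depth varied 4.75-fold, so the scaled levels of such abundant genes moved with depth, and the part of depth in the fall was not tested. Yap1 itself stood at 18.2 ± 3.10 eRPKM in controls (SD, n = 4) and 18.4 ± 0.862 at 7 days (SD, n = 3). Whether reads of the transgene are counted in this value is not stated, so it is no check of the induction. The canonical YAP targets Ctgf and Cyr61 rose at 7 days, by 3.49 and 3.27 on the log2 scale.

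In the Hippo pathway, the kinases LATS1 and LATS2 phosphorylate YAP and its paralog TAZ and keep them out of the nucleus, where they would bind TEAD factors and activate transcription. Angiomotins bind the WW domains of YAP directly through PPxY motifs, hold it at tight junctions and actin, and also help to activate LATS kinases. The Ajuba-related LIM proteins AJUBA, LIMD1 and WTIP are usually described as working in the opposite direction. They bind LATS kinases at adherens junctions under tension and hold them away from their substrate. Amotl2 is a textbook YAP target. Whether the angiomotins acted back on YAP in these livers was not tested.

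Amotl2 was the member with the highest level and the largest difference after 7 days. Its product is a junctional scaffold that binds YAP and links cadherin complexes to actin. Control livers 1 to 4 held 12.0, 14.7, 11.3 and 9.66 eRPKM. The 3-day livers held 14.9, 45.9, 58.7 and 19.98 eRPKM, and the 7-day livers 95.1, 91.9 and 102 eRPKM. Every 3-day liver was above every control, liver 1 at 3 days by a narrow margin, and every 7-day liver was above all others. The mean was 11.9 ± 2.10 eRPKM in controls (SD, n = 4), 34.9 ± 20.9 at 3 days (SD, n = 4) and 96.2 ± 5.08 at 7 days (SD, n = 3). At 7 days Amotl2 rose by a log2 fold change of 2.98 (SE 0.374, limma adjusted p = 6.96e-05), and the ratio of mean eRPKM was 8.08.

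At 3 days the log2 fold change of Amotl2 was 1.31 (SE 0.346, 95% confidence interval 0.57 to 2.06) and missed the threshold (limma adjusted p = 0.128). The spread at this time was wide. The 3-day livers with the suffix MF held 14.9 and 19.98 eRPKM and the others 45.9 and 58.7. With the suffix MF as a covariate over all 11 livers, the log2 fold change was 1.80 and was not called (limma adjusted p = 0.0182). In a fit without the MF livers, a choice made after the values were seen, Amotl2 was called at 3 days with a log2 fold change of 2.09 (limma adjusted p = 0.00308). No test of MF against other livers within the 3-day group is given, since with 2 livers against 2 an exact two-sided permutation test cannot go below p = 0.333.

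Amot encodes angiomotin itself, the founding member, which exists in a long form with the YAP-binding motifs and a short form without them. The table has a single value per gene and does not separate these forms. Amot was at 8.995, 5.99, 4.80 and 3.60 eRPKM in control livers 1 to 4. It was at 10.3, 11.2, 11.4 and 7.91 eRPKM at 3 days, and at 24.1, 31.1 and 25.1 eRPKM at 7 days. Control liver 1 overlapped with the 3-day livers, of which 3 of 4 were above all controls, while the 7-day livers stood clear of both groups. The means were 5.84 ± 2.31 eRPKM in controls (SD, n = 4), 10.2 ± 1.61 at 3 days (SD, n = 4) and 26.8 ± 3.79 at 7 days (SD, n = 3). Amot rose at 7 days by a log2 fold change of 2.17 (SE 0.259, limma adjusted p = 5.1e-05), with a ratio of mean eRPKM of 4.59. At 3 days the log2 fold change was 0.81 (95% confidence interval 0.29 to 1.33) and was not called (limma adjusted p = 0.185).

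Amot lies on chromosome X, and all 7-day livers were female, so its level was also read by sex. Among controls, the female livers held 4.80 and 5.99 eRPKM, inside the range of the male livers at 3.60 and 8.995. Among 3-day livers, the male livers held 10.3 and 11.2 eRPKM, inside the female range of 7.91 to 11.4. With female livers only, the log2 fold change of Amot at 7 days against control was 2.21 (limma adjusted p = 0.000307).

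Amotl1 was the exception in the family. It encodes a paralog with the same YAP-binding motifs. Control livers 1 to 4 held 6.86, 8.99, 7.90 and 5.64 eRPKM. The 3-day livers held 7.58, 6.24, 6.53 and 9.78 eRPKM, and the 7-day livers 6.56, 8.03 and 7.06 eRPKM. The groups overlapped throughout, with means of 7.35 ± 1.43 (SD, n = 4), 7.53 ± 1.60 (SD, n = 4) and 7.22 ± 0.747 eRPKM (SD, n = 3). The log2 fold change at 7 days was -0.01 with a 95% confidence interval of -0.48 to 0.46 (limma adjusted p = 0.978), an interval that holds changes of up to 1.38-fold upward. The median of all tested genes, which was 0.26 in this comparison, lies inside this interval. With quantile normalization, which takes that median to -0.08, Amotl1 stood at -0.64 (limma adjusted p = 0.0168) and again missed the threshold.

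**Figure D1:**
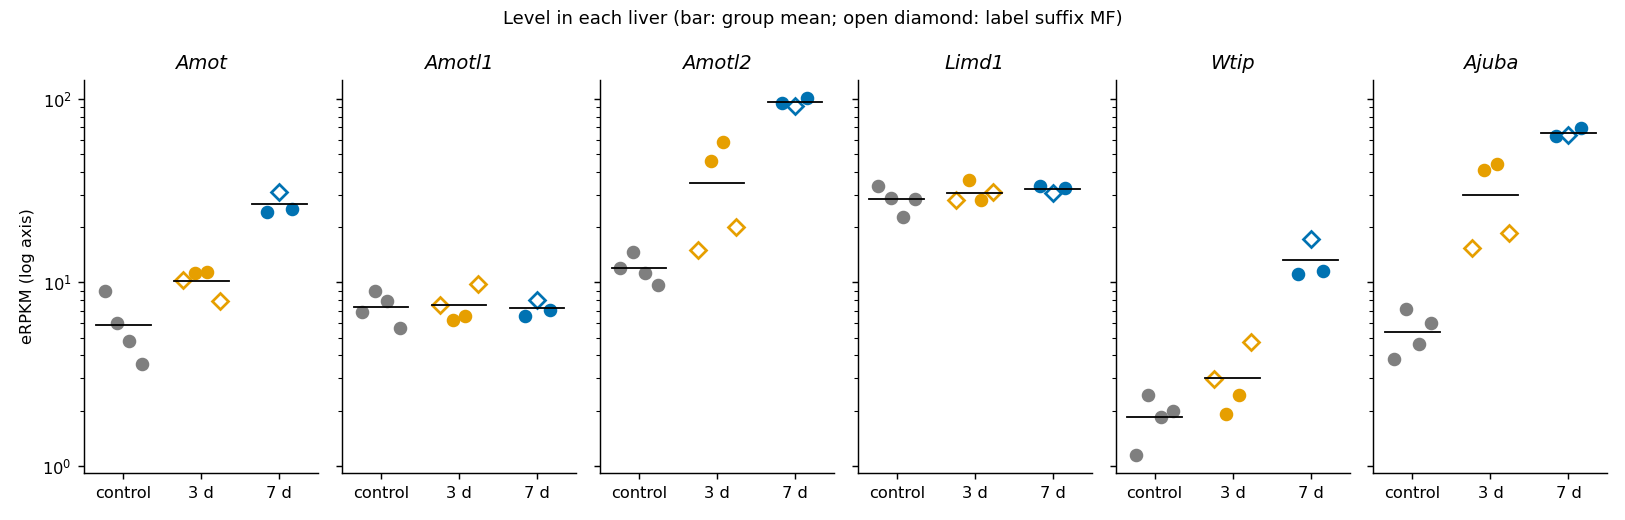
eRPKM of the 5 members and Ajuba in each liver on a log axis, by group, with the group mean as a bar and livers with the label suffix MF as open diamonds. Amot, Amotl2, Wtip and Ajuba at 7 days lie above every control, while Amotl1 and Limd1 overlap between the 3 groups. At 3 days the MF livers are the lower pair for Amot, Amotl2 and Ajuba and the upper pair for Amotl1 and Wtip.

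Limd1 was the most abundant member in controls. Its protein joins LATS sequestration to a role in hypoxia signalling and in microRNA silencing complexes. Control livers 1 to 4 held 33.5, 28.9, 22.7 and 28.5 eRPKM. Values were 28.1, 36.3, 28.1 and 31.0 eRPKM in the 3-day livers and 33.4, 30.7 and 32.7 in those of 7 days. No group stood apart: the means were 28.4 ± 4.41 (SD, n = 4), 30.9 ± 3.88 (SD, n = 4) and 32.3 ± 1.403 eRPKM (SD, n = 3). The log2 fold change at 7 days was 0.20 with a 95% confidence interval of -0.14 to 0.53 (limma adjusted p = 0.351), near the median of all genes.

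Wtip, the WT1-interacting LIM protein, was the member with the lowest level in controls. Control livers 1 to 4 held 1.15, 2.43, 1.85 and 1.98 eRPKM, from only 9, 27, 9 and 5 reads. The 3-day livers held 2.98, 1.91, 2.42 and 4.71 eRPKM, and the 7-day livers 11.1, 17.2 and 11.5 eRPKM from 120, 206 and 123 reads. The 3-day livers overlapped with controls, 2 of 4 being above all of them, and the 7-day livers were above both groups. The means were 1.85 ± 0.534 (SD, n = 4), 3.01 ± 1.22 (SD, n = 4) and 13.3 ± 3.40 eRPKM (SD, n = 3). At 7 days Wtip rose by a log2 fold change of 2.55 (SE 0.305, limma adjusted p = 5.1e-05), and the ratio of mean eRPKM was 7.15. At 3 days the log2 fold change was 0.55 (95% confidence interval -0.07 to 1.16, limma adjusted p = 0.473).

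The order of the members by level differed between the groups. In controls it was Limd1, Amotl2, Amotl1, Amot and Wtip, and in this order only the neighbours Amotl1 and Amot overlapped. At 7 days the order was Amotl2, Limd1, Amot, Wtip and Amotl1. There, only Limd1 and Amot overlapped, at 30.7 to 33.4 and 24.1 to 31.1 eRPKM. At 3 days Amotl2 and Limd1 overlapped, as did Amot and Amotl1.

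Read together, 0 of 5 members were called at 3 days against control by limma, where 0.0421% of all tested genes were called. At an unadjusted p under 0.05, 2 of 5 members passed at 3 days, Amot and Amotl2, against 12.1% of all genes. All livers were above all controls for 1 of 5 members at 3 days, Amotl2, against 3.38% of all genes. At 7 days against control 3 of 5 members rose and none fell, while 18.0% of all genes were called higher and 5.77% lower. The 7-day livers were all above the controls for the same 3 members, as they were for 36.7% of all genes. The balance of calls over all genes depended on scaling: 75.7% of calls were higher as deposited, 60.9% with median-ratio size factors and 50.5% with quantile normalization, and the 3 members were called higher under each. Since whole livers were sequenced, a change in the number of cells of a type and a change in RNA per cell cannot be told apart.

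The induced groups were also compared with each other. Against the 3-day livers, the 7-day livers were higher for 3 of 5 members, where 14.0% of all genes were called higher and 5.31% lower, and both comparisons at 7 days rest on the same 3 livers. Wtip rose by 2.0 on the log2 scale (SE 0.305, limma adjusted p = 0.000364), Amotl2 by 1.66 (SE 0.374, limma adjusted p = 0.00487) and Amot by 1.35 (SE 0.259, limma adjusted p = 0.0018). Amotl1 and Limd1 differed by -0.04 and 0.07 on that scale. The call for Amotl2 was lost without 3-day liver 4 or without any of the 7-day livers (limma adjusted p = 0.0147 to 0.0223), and that for Amot without 7-day liver 2 (limma adjusted p = 0.0132). With log2 depth as a covariate, Amotl2 (1.38, limma adjusted p = 0.0356) and Amot (1.06, limma adjusted p = 0.0103) also missed the threshold. Without all MF livers the log2 difference was 0.92 for Amotl2 (limma adjusted p = 0.0209) and 1.09 for Amot (limma adjusted p = 0.0668), neither called. All livers were above all of the other group for these 3 members, as for 31.3% of all genes. The call for Wtip held in each of these fits.

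**Figure D2:**
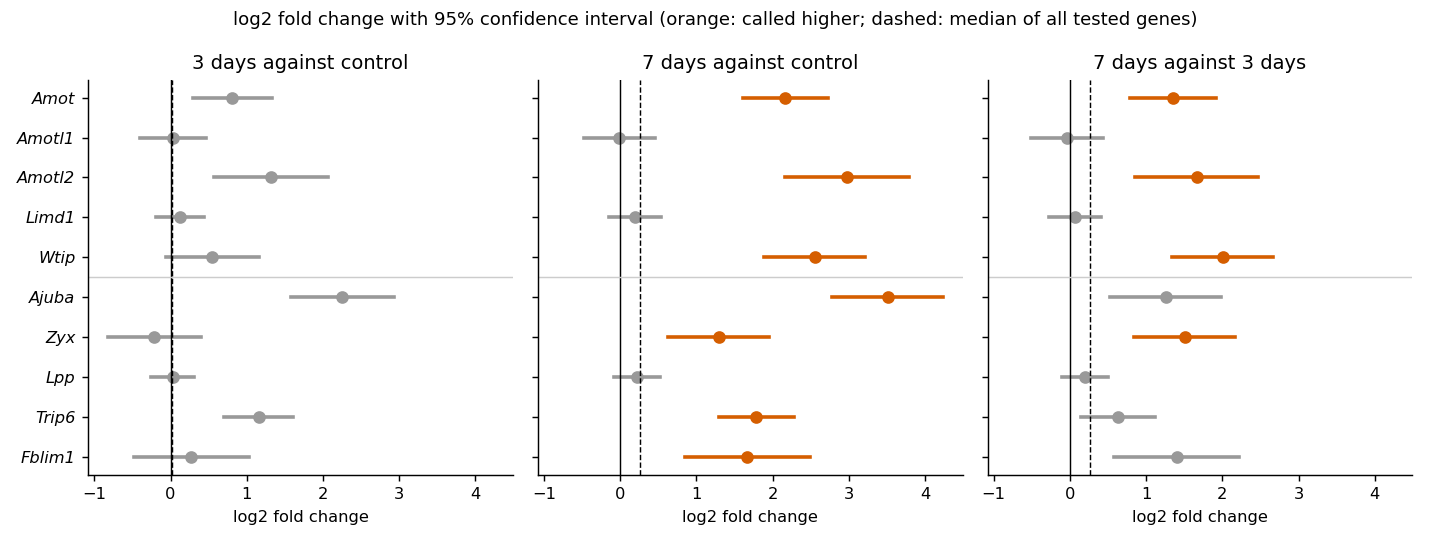
log2 fold change with its 95% confidence interval from limma for the 5 members (upper rows) and the 5 other genes of the Ajuba and zyxin families (lower rows) in the 3 comparisons. Orange marks genes called higher and the dashed line is the median of all tested genes. No gene is orange at 3 days, and at 7 days against control Amotl1, Limd1 and Lpp are the genes that stay near the dashed line.

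Because the 3 angiomotins share a ligand, their relative abundance was examined. The summed angiomotin level was 25.1 ± 4.76 eRPKM in controls (SD, n = 4), 52.6 ± 20.9 at 3 days (SD, n = 4) and 130.3 ± 4.16 at 7 days (SD, n = 3). Amotl2 made up 47.7% ± 3.50 of the sum in controls and 73.9% ± 3.29 at 7 days (SD, n = 4 and 3). The share of Amotl1 went from 29.4% ± 3.48 to 5.54% ± 0.512, and neither gene's shares overlapped between these groups. The share of Amot was 22.9% ± 6.30 in controls and 20.6% ± 2.78 at 7 days, with overlapping ranges. The 3-day MF livers 1 and 4 had Amotl2 shares of 45.5% and 53.0%, and the other livers 72.5% and 76.5%. These shares are a description without a test.

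**Figure D3:**
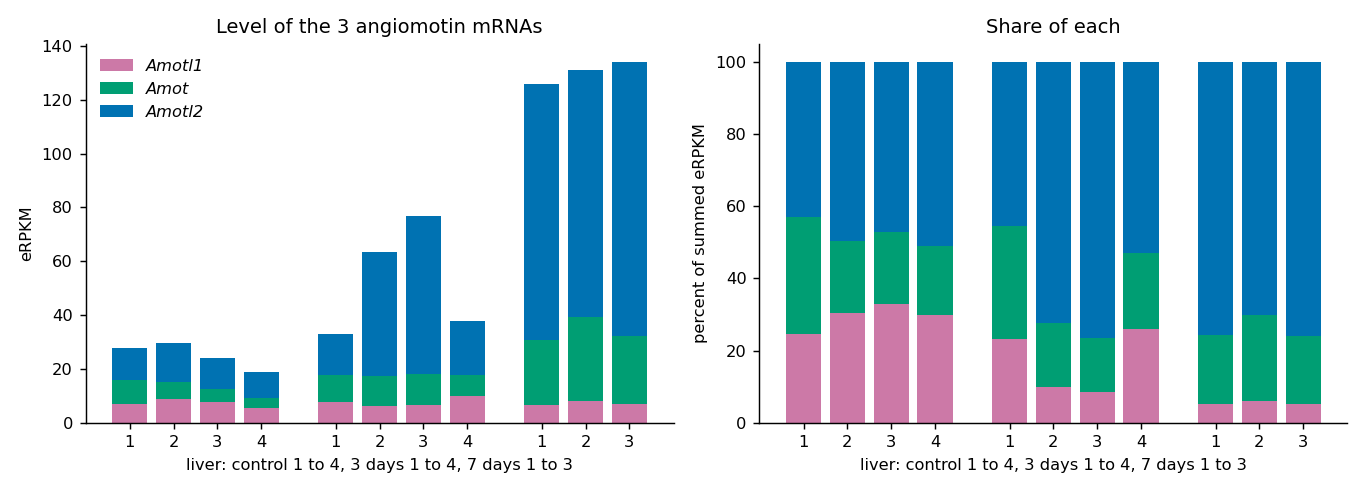
Stacked eRPKM of Amotl1, Amot and Amotl2 in each liver (left) and the share of each in their sum in percent (right). The sum lies between 18.9 and 29.7 eRPKM in controls and between 125.8 and 134.0 at 7 days, and the Amotl2 part grows while the Amotl1 part keeps its height on the left and shrinks on the right.

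Ratios within a liver do not depend on the factor by which the whole library was scaled. The ratio of Amotl2 to Amotl1 was 1.63 ± 0.143 in controls, 5.09 ± 3.62 at 3 days and 13.4 ± 1.74 at 7 days (SD, n = 4, 4 and 3). The ratio of Amot to Amotl1 was 0.806 ± 0.338 in controls and 3.71 ± 0.162 at 7 days. For both ratios all 7-day livers were above all controls and all 3-day livers. The ratio of Amotl2 to Amot was 2.21 ± 0.598 in controls and 3.65 ± 0.606 at 7 days, at 1.33 to 2.68 and 2.95 to 4.05, but the 3-day livers, at 1.45 to 5.13, overlapped with both groups. Among LIM genes, the ratio of Wtip to Limd1 was 0.0674 ± 0.0230 in controls and 0.414 ± 0.126 at 7 days. So the genes of each family changed unequally, whichever factor per library is used.

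Alb, which encodes albumin and whose reads did not follow depth, reached at most 1520 reads per kilobase of exon. Amotl2 reached 489 reads per kilobase at 7 days, more than Limd1 at 216, Amot at 157 or Wtip at 90.6. Whether the level of Amotl2 at 7 days is understated by the way reads were kept was not tested.

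Ajuba, the third LATS-binding LIM gene and the name giver of the group, was read beside the members together with the zyxin-related genes Zyx, Lpp, Trip6 and Fblim1. These encode focal adhesion and actin proteins with the same 3 LIM domains at the C terminus. Of these 5 genes, 4 rose at 7 days against control and 0 fell, where 18.0% of all genes were called higher and 5.77% lower, with a median log2 fold change of 1.67 beside 0.26 for all genes. Ajuba was at 3.84, 7.15, 4.60 and 5.98 eRPKM in control livers 1 to 4, at 15.5, 41.0, 44.2 and 18.6 at 3 days and at 62.6, 63.9 and 69.2 at 7 days, so the 3 groups did not overlap. It rose at 7 days by a log2 fold change of 3.51 (SE 0.336, limma adjusted p = 1.19e-05). At 3 days its log2 fold change was 2.25 and just missed the threshold (limma adjusted p = 0.0117). It was called in 7 of 29 alternatives. Among these were the looser threshold of 0.05 for adjusted p and the fit without MF livers, a choice made after the values were seen. As for Amotl2, the MF livers were the low pair at 3 days. Cyr61 had the same order, at 26.75 and 27.55 eRPKM in MF livers and 48.26 and 53.43 in the others. So did Ctgf, at 15.31 and 15.47 eRPKM against 31.28 and 34.24. Amot, Zyx and Yap1 had this order as well. Wtip, Amotl1, Lpp and Fblim1 had the reverse order, and for Limd1 and Trip6 the pairs overlapped. With 2 livers against 2, an exact two-sided permutation test cannot go below p = 0.333, so no conclusion is drawn from these orders. The share of all genes split in this way was not counted.

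Trip6, a binding partner of LATS as well, had means of 12.3 ± 3.15, 27.8 ± 5.81 and 42.5 ± 2.84 eRPKM (SD, n = 4, 4 and 3) and rose at 7 days by 1.78 on the log2 scale (limma adjusted p = 7.29e-05). Zyx, which encodes zyxin, went from 15.8 ± 3.97 to 38.6 ± 3.96 eRPKM and rose by 1.29 (limma adjusted p = 0.00538). Fblim1, which encodes migfilin, went from 1.03 ± 0.690 to 4.31 ± 1.82 eRPKM and rose by 1.67 (limma adjusted p = 0.00395). The calls for Zyx and Fblim1 were lost in 9 and 10 of 29 alternative fits. Among these were the fits without control liver 1, without control liver 4, without 7-day liver 2 and without 7-day liver 3 for both genes, and without 7-day liver 1 for Zyx, with limma adjusted p = 0.0113 to 0.0247. Lpp, the most abundant of this family in controls but not at 7 days, was at 30.0 ± 3.92 and 34.9 ± 3.09 eRPKM. It was not called (log2 fold change 0.22, 95% confidence interval -0.08 to 0.53, limma adjusted p = 0.233). In controls the ratio of Ajuba to Limd1 was 0.194 ± 0.0563, and at 7 days it was 2.02 ± 0.130. Thus Limd1 was the more abundant of the pair in every control liver and Ajuba in every 7-day liver.

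The partners of both families were read from lists of textbook interactors. Of 20 partners of angiomotins (polarity proteins, ubiquitin ligases, tankyrases, LATS kinases, YAP and TAZ), 19 were found and tested. At 7 days 4 of 19 rose and 0 fell, close to the 18.0% of all genes called higher, and the list's median log2 fold change was 0.06 beside 0.26 for all genes. The genes that rose were Lats2 (1.44, limma adjusted p = 0.000142), Wwtr1, which encodes TAZ (1.13, adjusted p = 0.00157), the ubiquitin ligase gene Nedd4l (1.38, adjusted p = 0.00296) and the tight junction gene Tjp1 (1.02, adjusted p = 0.00792). Lats2 went from 9.25 ± 1.79 to 25.8 ± 4.21 eRPKM (SD, n = 4 and 3), while its paralog Lats1 was at 27.4 ± 4.69 and 23.9 ± 1.23 eRPKM and was not called (limma adjusted p = 0.408). No partner was called at 3 days, and 3 of 19 were called higher at 7 days against 3 days, beside 14.0% of all genes.

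Of 14 partners of the LIM proteins, 4 rose at 7 days and 0 fell, beside 18.0% and 5.77% of all genes, with a median log2 fold change of 0.34 that is close to the 0.26 of all genes. Beside Lats2, which is on both lists, these were Egln1, a prolyl hydroxylase that binds LIMD1 (0.92, limma adjusted p = 0.000979), Ctnna1, which encodes alpha-catenin, the junctional anchor of these proteins (0.92, adjusted p = 0.00426), and the arginine methyltransferase gene Prmt5 (1.13, adjusted p = 0.00437). With log2 depth as a covariate, only 1 gene of each partner list was called higher at 7 days.

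A common list of YAP and TAZ targets, which includes Amotl2 and Lats2, served as a reference for the members. Of 20 tested genes on it, 12 rose and 2 fell at 7 days, beside 18.0% and 5.77% of all genes, with a median log2 fold change of 1.55 where that of all genes was 0.26. The lowest adjusted p-values belonged to Ankrd1 (3.88, limma adjusted p = 8.78e-07), Cyr61 (3.27, adjusted p = 8.01e-06), Ctgf (3.49, adjusted p = 1.25e-05) and Axl (2.03, adjusted p = 1.69e-05). Igfbp3 and Rbms3, named after their values were seen, fell by 1.78 and 1.20 on the log2 scale. At 3 days none of the list was called, as for the members. The log2 fold change of Amotl2 at 7 days, 2.98, lay below those of Ankrd1, Cyr61 and Ctgf and above that of Axl.

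**Figure D4:**
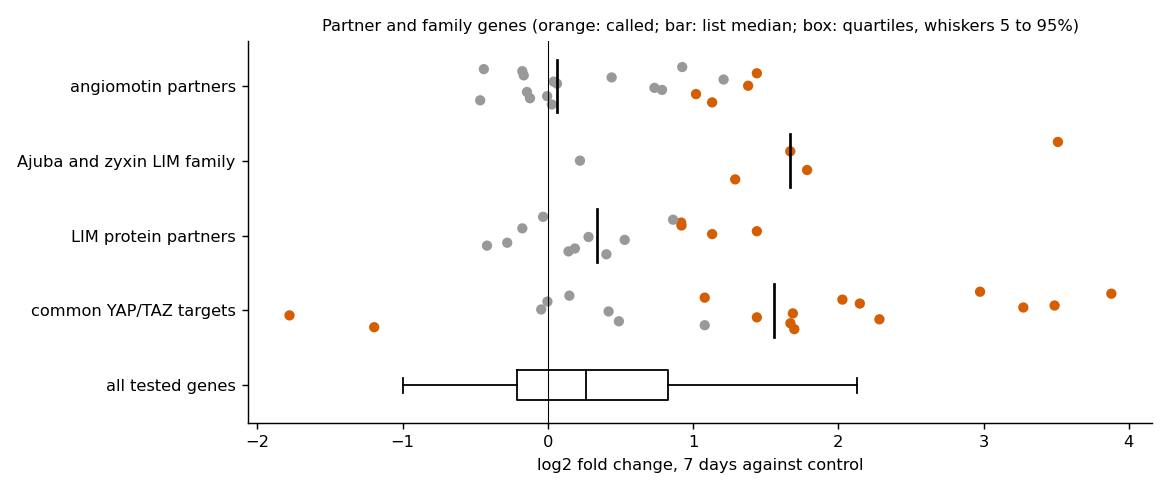
log2 fold change at 7 days against control of each tested gene on 4 lists, with the list median as a vertical bar and called genes in orange. The box gives the quartiles of all tested genes with whiskers from 5 to 95%. The medians of both partner lists lie near that of all genes, and those of the Ajuba and zyxin family (1.67) and of the YAP and TAZ targets (1.55) to its right.

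The members' start regions were then set beside their levels, since TEAD factors, which bring YAP to DNA, recognize the core motif GGAATG. The motif was sought as GGAATG or CATTCC, that is on both strands, from 250 bases before to 50 after the RefSeq start of each gene on GRCm38.p6. Of 32851 such promoters, 14.7% hold at least 1 match and 1.36% at least 2. Counted from the start site, Amotl2 has 1 match at -65, and Wtip has 4 at -245, -134, -100 and -10. At least 4 matches are found in 6 promoters of the 32851 (0.0183%). Amot and Amotl1 have none, and Ajuba has 2. The AP-1 motif TGANTCA, found in 7.81% of promoters, is in none of these windows. No promoter of Limd1 is shown.

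The 250 bases before the start are printed for the angiomotins and Wtip, so that the members that rose can be compared with Amotl1. They run 5′ to 3′ on the strand of the gene, and capitals mark the TEAD core motif. They lie at chr9:102717554-102717803 on the plus strand for Amotl2, and on the minus strand at chr7:34133269-34133518 for Wtip, chrX:145487640-145487889 for Amot and chr9:14615001-14615250 for Amotl1.
Amotl2: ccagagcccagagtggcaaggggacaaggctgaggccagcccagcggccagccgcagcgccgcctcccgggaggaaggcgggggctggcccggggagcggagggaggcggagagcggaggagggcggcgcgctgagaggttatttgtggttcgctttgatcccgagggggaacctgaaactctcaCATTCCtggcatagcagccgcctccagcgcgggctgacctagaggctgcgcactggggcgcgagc
Wtip: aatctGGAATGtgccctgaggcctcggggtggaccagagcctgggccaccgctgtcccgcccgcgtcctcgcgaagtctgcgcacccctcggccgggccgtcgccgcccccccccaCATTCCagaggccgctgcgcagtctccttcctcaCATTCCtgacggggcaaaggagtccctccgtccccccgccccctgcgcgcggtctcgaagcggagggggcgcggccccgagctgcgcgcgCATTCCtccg
Amot: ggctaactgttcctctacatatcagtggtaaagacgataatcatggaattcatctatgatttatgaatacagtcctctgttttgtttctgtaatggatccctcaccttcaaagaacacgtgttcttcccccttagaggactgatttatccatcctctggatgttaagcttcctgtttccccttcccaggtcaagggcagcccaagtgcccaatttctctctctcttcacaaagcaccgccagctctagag
Amotl1: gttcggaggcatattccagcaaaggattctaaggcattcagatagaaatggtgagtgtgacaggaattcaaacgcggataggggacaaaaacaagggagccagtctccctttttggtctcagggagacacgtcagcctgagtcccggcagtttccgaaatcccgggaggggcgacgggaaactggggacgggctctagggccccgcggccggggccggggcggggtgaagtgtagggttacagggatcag

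Matches thus do not follow the levels member by member. Wtip with 4 matches and Amot with none both rose at 7 days, and Amotl1 with none did not. A match is a description of the letters in this window, and more distant elements were not searched.

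**Figure D5:**
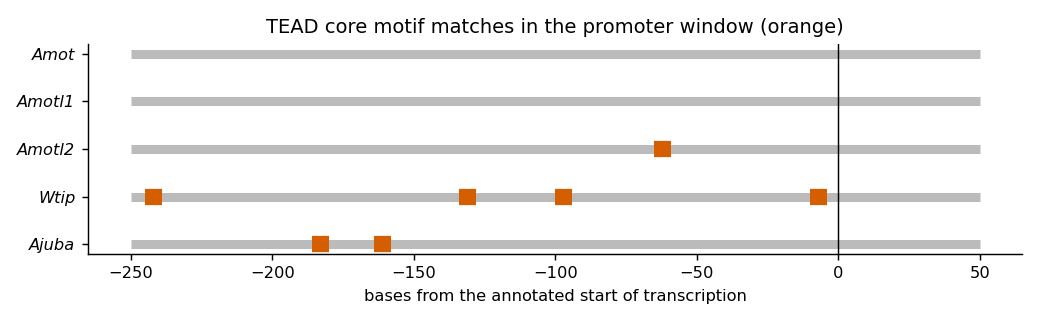
Positions of the TEAD core motif (orange) in the promoter windows of 4 members and Ajuba, in bases from the annotated start of transcription at 0. Wtip has 4 matches, Ajuba 2 and Amotl2 1, all before the start, and Amot and Amotl1 have none.

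On the mm9 build used for alignment, with GENCODE M1 annotation, Amot spans chrX:141880968-141939724 and Wtip chr7:34894562-34918287, both on the minus strand. Amotl1 (chr9:14346410-14447973, minus strand), Amotl2 (chr9:102619002-102635748) and Limd1 (chr9:123387819-123430666, both plus strand) lie on chromosome 9, megabases apart. None of the 5 has an exon that overlaps an exon of another annotated gene, which matters here because reads were aligned without strand.

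Other genes followed the same course over the 11 livers. By Pearson correlation of log2(eRPKM + 0.5) over 12569 genes with a mean of at least 1 eRPKM, the genes most like Amotl2 were Trak2 (r = 0.990), Sptan1 (r = 0.986) and Dlk2 (r = 0.986). Those most like Amot were Mapre1, Uba2 and Nras (r = 0.987, 0.980 and 0.972). For Wtip they were Ms4a6d, Ehd4 and Ap1s2 (r = 0.982, 0.982 and 0.977). These values include the differences between the groups. For deviations from the group means, r was 0.943, 0.958 and 0.955 for the genes listed with Amotl2. It was 0.912, 0.846 and 0.791 for those of Amot and 0.797, 0.812 and 0.749 for those of Wtip. The genes were picked for the highest values among many, so their values are high by selection. For Amotl1 the genes were Bambi, Gtf2i and Gimap6 (r = 0.956, 0.948 and 0.945), and for Limd1 Alg2, Zc3h7a and Ube2j1 (r = 0.912, 0.905 and 0.900).

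Among the members that rose at 7 days, correlations were lower within the groups than over all livers. Over all 11 livers the correlation of Amot with Amotl2 was 0.91 and that of Amotl2 with Wtip 0.79. For deviations from the group means these values were 0.36 and -0.46. They come from few livers, and whether they differ from 0 was not tested. The 3-day MF livers held more Wtip, 2.98 and 4.71 eRPKM, than the others, 1.91 and 2.42, which is the reverse of Amotl2. Amotl1 had the order of Wtip, at 7.58 and 9.78 eRPKM in MF livers and 6.24 and 6.53 in the others.

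Levels of markers of other liver cells are given beside the members. For 5 macrophage markers the summed level lay at 179 to 368 eRPKM in controls, at 208 to 399 in 3-day livers and at 651 to 729 in 7-day livers. That of 6 proliferation genes was 7.13 to 18.6, 14.5 to 110.4 and 112 to 169 eRPKM. At 7 days against control, 2 of 8 stellate and mesenchymal markers fell and 0 rose. Of 8 endothelial markers 2 rose and 1 fell. Their summed levels were 137 to 246 eRPKM in controls and 207 to 246 at 7 days. Of 5 tested biliary markers 1 rose, and of 6 lymphocyte markers none was called. Over all tested genes 18.0% were called higher and 5.77% lower, so the biliary count is near that share. No marker was at 0 in every liver. The part of these cell types in the levels of Amot, Amotl2 and Wtip was not tested.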

How the data were processed

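RNA of 11 livers was sequenced in read pairs with a TruSeq RNA kit, low-quality bases were masked, and the authors aligned reads without strand to mm9 with TopHat 2.0.8. The authors tested differential expression with DESeq2. featureCounts 1.4.5-p1 is named in the submitters' notes without a role, and the annotation is not given in the sources used here. The deposited values are eRPKM, a form of RPKM (reads on exons per kilobase, scaled per library). The 3 columns of the authors' own comparison (mean, fold change and adjusted p) were not used. All values above 0 (177553, 100%) were within 0.1 of whole reads, from which depth was taken. Depth was 1251396 to 5941357 reads, so genes with few reads, such as Wtip in controls, are known imprecisely.

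Genes that reached 0.5 eRPKM in 3 or more libraries (14244 of 20893) entered limma 3.58.1 (R 4.3.3, lmFit and eBayes with trend) on log2(eRPKM + 0.5), with all 11 livers in 1 fit without covariates and Benjamini-Hochberg adjustment over all tested genes. The test was also run on simulated reads, with 200 genes set to a log2 fold change of 1.5 up or down at 7 days. It found 71.5% of them and called 4 unchanged genes. The simulation gave every gene the same dispersion (spread beyond that of read counting), so it does not cover the wide spread of the 3-day livers. Groups came from sample labels. Members and gene lists were chosen with earlier results of these data known. Named genes were the 5 members, the Ajuba and zyxin family, at most 4 called genes of each other list by adjusted p, the 3 genes most like each member, and Yap1, Cyr61 and Ctgf. Alternatives covered the pseudocount (1 or 0.1), filter, scaling, variance model, covariates (suffix MF, log2 Xist, log2 depth), replicate number as a block, female livers only, limma-voom on recovered reads, a threshold of 0.05 for adjusted p, and omission of single livers. Added after the values were seen were fits without all MF livers and without the 2 shallowest controls, and ratios within a liver. Promoter sequences are from RefSeq (GRCm38.p6), which held 4 of 5 members. Scripts ran in Python 3.11.15 (pandas 2.3.3, numpy 2.4.6, matplotlib 3.10.9, scipy 1.17.1).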

Additional observations from a re-analysis of the deposited data

Results flagged for a closer look

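Among the shares of the angiomotins, control liver 1 stood apart from its group. Amot made up 32.3% of the summed angiomotin eRPKM there and 19.1 to 20.2% in the other 3 controls, and the gap to the nearest liver was 0.915 of the group's whole range, which is past Dixon's 95% critical value for 4 samples. This was 1 of 28 sets of 4 livers examined, and chance passes about 1 in 20.

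In the direct comparison of 7 days with 3 days, 3 members were called higher at 7 days. The difference on the log2 scale was 1.35 for Amot (limma adjusted p = 0.0018), 1.66 for Amotl2 (limma adjusted p = 0.00487) and 2.0 for Wtip (limma adjusted p = 0.000364), and in each case 3 of 3 livers at 7 days were above all 4 livers at 3 days. The call was lost in 10 of 29 alternatives for Amotl2 and in 3 for Amot, among them the fit with log2 depth as a covariate for both, and in none for Wtip.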

How the results depend on the processing

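Results were recomputed under 29 alternatives. Amot, Amotl2 and Wtip were called at 7 days against control under all of them, with log2 fold changes of 1.77 to 2.38, 2.60 to 3.30 and 2.07 to 2.80, so the count of members called was 3 in each. At 3 days against control the count was 0, but 1 (Amotl2) without all MF livers, and 0 in each fit that left out 1 liver. At 7 days against 3 days it was 3, but 1 (Wtip) with log2 depth as a covariate and 1 without all MF livers, and 1 to 3 when 1 liver was left out, the lowest without 7-day replicate 2. Between the times Amotl2 missed the threshold in 10 alternatives and Amot in 3. The causes were not tested. With recovered reads in place of eRPKM, which leaves length in, the angiomotin shares were 39.0% in controls and 8.44% at 7 days for Amotl1, 38.0% and 67.8% for Amotl2, and 23.8% at 7 days for Amot.

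Among the members and the Ajuba and zyxin family, signs turned only where the gene was not called. For Amotl1 at 3 days the log2 fold change was -0.02 with quantile normalization, -0.13 with suffix MF as a covariate, -0.03 with depth as a covariate, -0.07 in female livers, -0.01 with limma-voom, -0.17 without MF livers, -0.08 without the 2 shallowest controls, and -0.09 to 0.13 when 1 liver was left out. At 7 days it was -0.12 to 0.09 when 1 liver was left out. Between the times it was 0.01 with the MF covariate, 0.09 without MF livers and -0.12 to 0.08 when 1 liver was left out. Limd1 at 3 days was at 0.0 with quantile normalization and -0.02 without the shallowest controls, and with size factors it was at -0.07 at 7 days and -0.17 between the times. Zyx at 3 days was at 0.06 with the MF covariate and 0.28 without MF livers, and Fblim1 at -0.04 with that covariate and -0.11 in female livers. Lpp at 3 days was at -0.09 with quantile normalization, -0.03 with the MF covariate, -0.02 with depth, 0.0 without MF livers, -0.13 without the shallowest controls and -0.04 to 0.09 when 1 liver was left out, and with size factors at -0.04 at 7 days and -0.05 between the times.

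Replicate numbers did not pair the livers: the correlations of same-numbered livers' deviations from group means ran from -0.222 to 0.269. With the replicate block the count of members called was 0 at 3 days, 3 at 7 days and 3 between the times. Counts over all genes at 7 days ran from 1099 to 3969 higher beside 2561, and from 469 to 1821 lower beside 822; at 3 days from 0 to 53 higher beside 6 and from 0 to 2 lower beside 0; between the times from 672 to 3621 higher beside 1997 and from 211 to 1464 lower beside 756. Partners of angiomotins called higher at 7 days ran from 1 to 7 beside 4, LIM partners from 1 to 5 beside 4, the Ajuba and zyxin family from 2 to 4 beside 4, and YAP and TAZ targets from 10 to 13 beside 12. Between the times the ranges for these 4 lists were 0 to 7 beside 3, 0 to 5 beside 3, 0 to 4 beside 1 and 3 to 13 beside 11. At 3 days the family reached 2 and the targets 3, each beside 0.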
